A study of Mus musculus with 37 samples.

Results

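Cells of a mixed reprogramming culture were compared by the factor transcripts detected in them: 2033 cells with at least 1 count of Mef2c and none of Myod1 against cells with no count of either factor. The cells were mouse embryonic fibroblasts (MEFs, ICR background) that had received 48 factors as a pool of retroviral vectors and were profiled on day 7 by Drop-seq, in which single cells are caught in droplets. All 37 libraries were technical replicates of 1 biological replicate, every library got the same pool, and no cells without the pool were analysed here. The p-values below therefore measure the spread between libraries of 1 culture and nothing beyond it. Cells were not sorted by factor: a cell's group is what was counted in it, and counts per gene do not tell a delivered Mef2c transcript from an endogenous one.

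After removal of repeated barcodes 8565 cells were kept, in 36 libraries (technical replicates 4 and 6 shared 59 cell barcodes, no other pair more than 4, and were treated as 1 library). Of these cells 2033 (23.7%) held Mef2c without Myod1, 6180 held neither factor, 198 held both and 154 held Myod1 alone. Per library, the share with Mef2c alone was 23.9 ± 5.09% (SD, n = 36), from 12.9% to 32.5%. Each of the 2033 cells was paired with a cell of the same library that held neither factor and was closest in total counts. Median totals were then 12791 and 12710 counts per cell, mean totals were 20680.5 and 17896.0, and 1665 pairs were within 10% of each other. Mef2c was seen as a single count in 1267 of the 2033 cells (62.3%), as 2 counts in 395 and as 3 or more in 371, up to 65. Cells with exactly 1 count lie just inside the rule, and the cells of the comparison group, with 0 counts, lie just outside it.

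Mef2c is a transcription factor of the MEF2 family, which binds AT-rich sites and is known for its part in heart and skeletal muscle development. Myod1 is a basic helix-loop-helix factor that binds E-boxes and can turn fibroblasts into skeletal muscle. In muscle development MEF2 proteins and the Myod1 family are known to act together, and Myog, a member of that family, marks the step from dividing myoblast to differentiating fibre. Mef2c is also a known gene of myeloid, neural crest and nerve cells.

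Counts were summed per library over each group and are given as CPM, the counts scaled to a total of 1000000 for that group's cells in that library. Among 16237 genes tested, 208 (1.28%) were higher and 82 (0.505%) were lower in cells with Mef2c alone, at an adjusted p under 0.05 in edgeR's quasi-likelihood test with the library as a block. The median log2 fold change of all genes was 0.01. Counts of list members called below are to be set beside the shares of 1.28% and 0.505%, unless another share is given. Libraries held 637680 to 7921171 counts in 70 to 548 cells, with median totals of 3563 to 15695 counts per cell. The 23 fibroblast genes together ran from 26540.5 to 36050.8 CPM with Mef2c alone and from 25721.4 to 36702.4 CPM with neither factor, so both groups carried the markers of the labelled cell type. From the sums per library alone, fewer cells of a type and less RNA per cell cannot be told apart. Which cells held the counts of some of the genes is described further below.

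Myog, which drives myoblast differentiation, was the 1 myogenic regulator past the threshold in this test. Per library its level ran from 0 through a median of 7.51 to 48.4 CPM with Mef2c alone, and from 0 through 1.55 to 7.53 CPM with neither factor. The ranges overlapped, and the level was higher with Mef2c in 27 of 36 libraries and lower in 5. The log2 fold change was 2.56 ± 0.26 (SE, edgeR adjusted p = 4.3e-09). The test itself reports no SE. Here and below it is the size of the log2 fold change divided by the square root of the test's F statistic. Myog lies at chr1:134289989-134292548 (GRCm38) and held 522 counts in 101 cells against 65 counts in 53 cells. Of 7 tested regulators 1 thus passed in this test and in DESeq2, and the list's median log2 fold change was 0.45. Eya1, a transcriptional cofactor, had 0.45 ± 0.13 and an edgeR adjusted p of 0.051, and passed in the bias-adjusted form of edgeR's test (adjusted p = 0.0085), an alternative chosen after seeing the data. Six4, a DNA-binding partner of Eya1, had -0.18. Myf5 held 2 counts in each group and Myf6 held 0 and 1, too few to test, so a difference in these early and late relatives of Myod1 was not detectable at this depth.

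Genes of myoblast fusion and of the muscle end plate were higher in part. Mymk, the muscle membrane protein that drives fusion, had per library 0, 5.86 and 117 CPM (lowest, median, highest) with Mef2c alone and 0, 1.69 and 28.0 CPM with neither. It was higher in 29 libraries of 36, by 2.05 ± 0.33 in log2 (edgeR adjusted p = 5.1e-05), with overlapping ranges. Its partner in fusion Mymx had 1.98 ± 0.45 and the myoblast cadherin Cdh15 had 1.39 ± 0.27, while Ncam1, a neural cell adhesion molecule, was lower, at -0.24 ± 0.06. Thus 3 of 9 tested members of this list were higher and 1 was lower, beside 1.28% and 0.505% of all genes tested. Of the acetylcholine receptor list 2 of 6 were higher, the subunits Chrng (2.14 ± 0.54), which marks the embryonic receptor, and Chrna1 (1.12 ± 0.26). Rapsn, which clusters the receptor, had 0.96 ± 0.28 and did not pass (edgeR adjusted p = 0.068). The tools differed on these genes: Rapsn passed in DESeq2 and in the bias-adjusted test, Chrna1 passed in all of them, and Chrng did not pass in DESeq2 (adjusted p = 0.93). Cdh15 shares its locus with an overlapping gene model and the strand setting of the counting was not stated, so its counts are uncertain. The same holds for Mybph, Smyd1, Mb, Ryr1, Cacna1s, Ttn, Neb, Tnnc2, Tnnt3, Acta1, Art1, Myom1, Sox6 and Cald1.

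Of the 7 muscle lists, that of the fast and embryonic sarcomere had the highest median. Of 15 tested members 9 were higher and none lower, with a median log2 fold change of 1.68 beside 0.01 over all genes. Mylpf, the fast regulatory myosin light chain, ran from 3.39 through 33.1 to 527 CPM with Mef2c alone and from 2.32 through 7.56 to 31.9 CPM with neither. Its log2 fold change was 2.52 ± 0.26 (edgeR adjusted p = 2.8e-09), higher in 27 libraries and lower in 9. Myh3, the embryonic myosin heavy chain, ran from 0 through 3.32 to 125 CPM against 0 through 0.975 to 5.85 CPM. Here the log2 fold change was 3.05 ± 0.38 (edgeR adjusted p = 4.7e-07). For both genes the medians were apart and the ranges overlapped.

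Mybph, a myosin-binding protein of fast muscle, was higher by 2.88 ± 0.34, with 577 against 52 counts. The other members past the threshold were the troponins Tnni2, Tnnc2 and Tnnt3, the light chain Myl1, the thin-filament ruler Neb and the perinatal myosin Myh8, with log2 fold changes from 1.65 to 2.27. The adult myosins did not pass: Myh4 had 1.23 ± 0.56, Myh2 0.84 ± 0.52 and Myh1 -0.50 ± 0.44. Skeletal actin Acta1, with 7599 against 4313 counts, had 0.57 ± 0.22 (edgeR adjusted p = 0.24). The plot of single libraries shows the spread of the main genes.

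**Figure D1:**
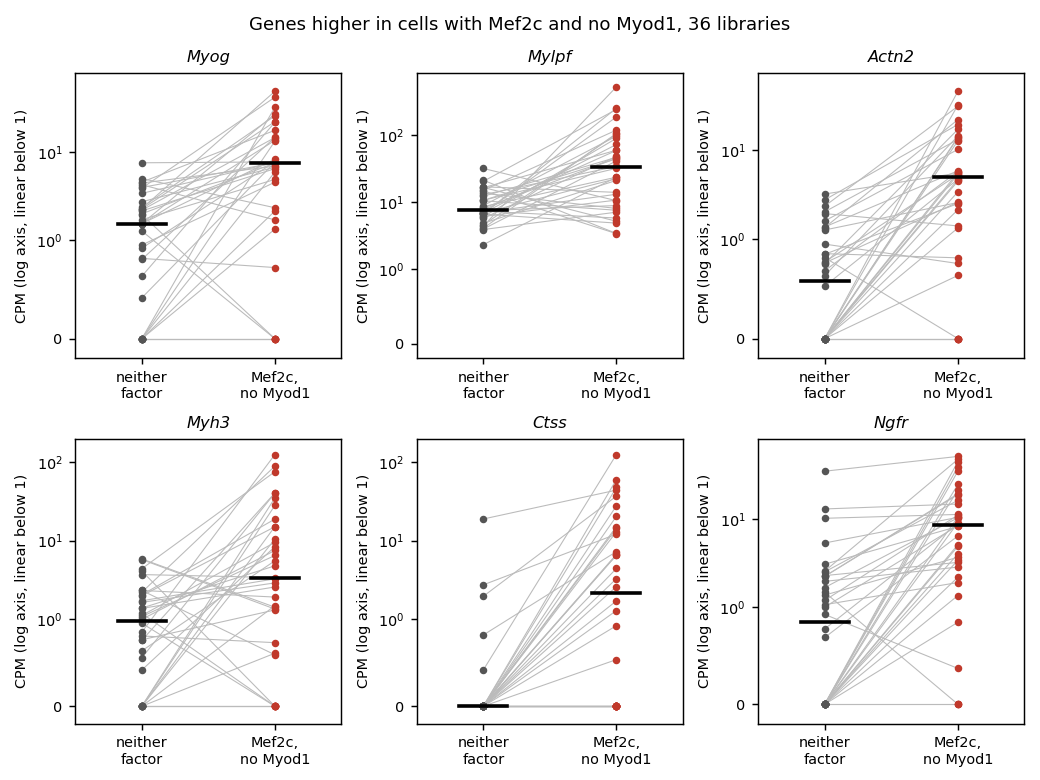
CPM per library (y axis, logarithmic above 1 and linear below) of Myog, Mylpf, Actn2, Myh3, Ctss and Ngfr in cells with neither factor (grey) and with Mef2c and no Myod1 (red). Each line joins the groups of 1 of 36 libraries and black bars are medians. The medians of Mylpf are 7.56 and 33.1 CPM, and the groups overlap for every gene drawn.

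Of the sarcomere genes that heart and skeletal muscle share, 12 of 26 tested were higher and none lower, with a median of 1.05. Actn2, which anchors thin filaments in the Z-disc, ran from 0 through 5.02 to 45.6 CPM with Mef2c alone and from 0 through 0.582 to 3.23 CPM with neither. Its difference was the largest of these genes, at 3.13 ± 0.28 in log2 (edgeR adjusted p = 1.4e-10), and it was higher in 28 libraries and lower in 4. Smyd1, a methyltransferase of sarcomere assembly, had 2.76 ± 0.35, and Tnni1, the slow troponin I, had 1.98 ± 0.27. Titin, Ttn, had 1.98 ± 0.32 with 2209 against 469 counts, and cardiac actin Actc1 had 1.96 ± 0.43. Des and Tnnt2, with far more counts, did not pass. Des, the muscle intermediate filament, had 0.15 ± 0.17 with 10591 counts against 8704, and Tnnt2, cardiac troponin T, had 0.42 ± 0.17 with 13816 against 8468.

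The list of heart muscle genes gave no call in the main test: 0 of 13 tested passed in edgeR (2 at an unadjusted p under 0.05) and 0 in DESeq2, with a median of 0.44. The highest was the cardiac myosin Myh6 at 2.04 ± 0.63 (edgeR adjusted p = 0.10), which the bias-adjusted test called. The natriuretic peptide Nppa had -0.57 ± 0.37. In the calcium list 7 of 14 were higher in edgeR, where DESeq2 called 5. They included the voltage sensor Cacna1s (2.56 ± 0.47, 39 counts against 2), the release channel Ryr1 (1.84 ± 0.35), and Srl, a protein of the sarcoplasmic reticulum (1.94 ± 0.33). The pump of most cells, Atp2a2, had -0.01 ± 0.04. Of the energy genes 2 of 11 were higher in edgeR, the oxygen store Mb (2.53 ± 0.33) and the respiratory chain subunit Cox8b (1.90 ± 0.40). DESeq2 called Mb but not Cox8b (adjusted p = 0.16). The muscle creatine kinase Ckm, with 44 counts against 21, had 0.77 ± 0.55. Of the smooth muscle genes 2 of 13 were lower, the actin-binding proteins Tpm1 (-0.18 ± 0.04) and Cald1 (-0.11 ± 0.03), and none higher. Of all genes tested 0.505% were lower. The plot of list members sets these lists side by side.

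**Figure D2:**
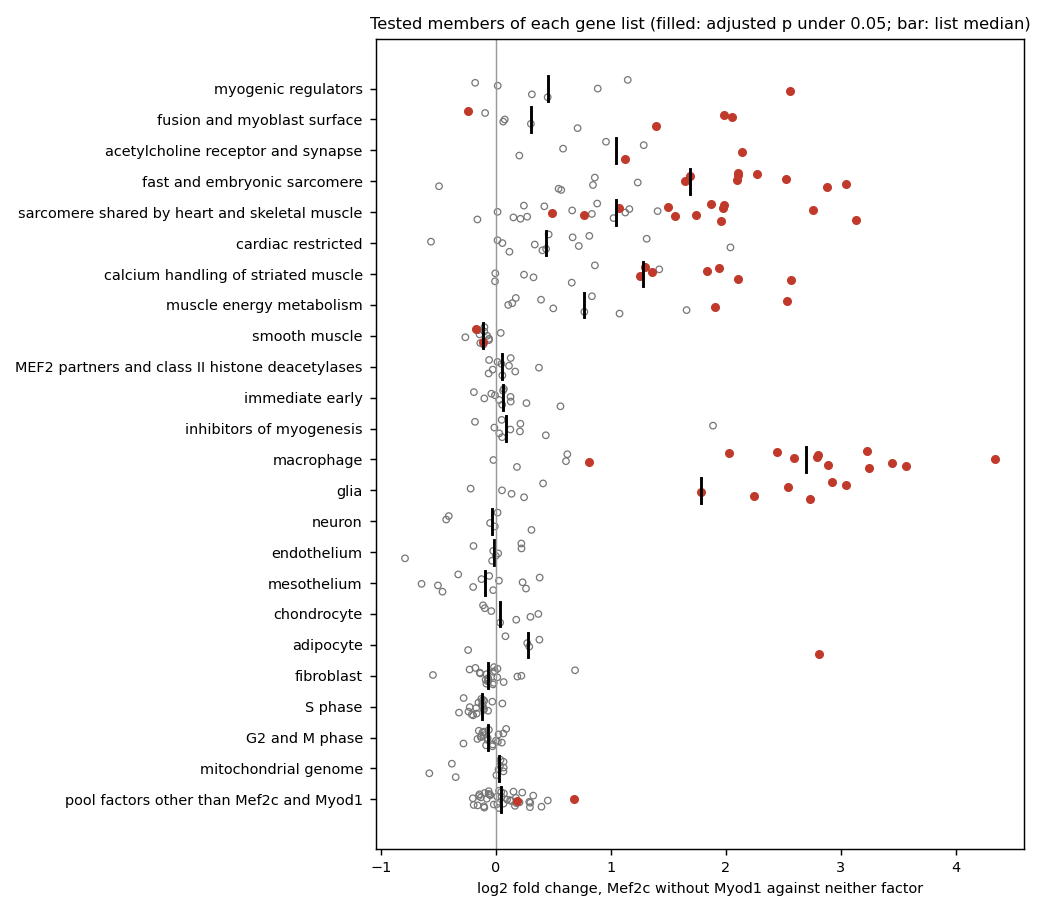
Log2 fold change (x axis, Mef2c without Myod1 against neither factor) of each tested member of 24 gene lists (y axis), filled red at an adjusted p under 0.05, with a black bar at the list's median. The medians are 1.68 for the fast and embryonic sarcomere, 2.69 for macrophages and 1.78 for glia, while fibroblast, cell cycle and mesothelium lists lie around 0.

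The sequence before the start of the muscle genes was read for the motifs of the MEF2 and Myod1 families. Windows of 250 bases upstream of RefSeq starts (GRCm38.p6) existed for 27 of the 36 muscle-list genes called higher, 31 windows in all. Both strands were searched. Some windows of Mb, Tnni1 and Ldb3 share bases, so the same motif can count in more than 1 window. The 5 windows shown were picked for holding the motifs in different combinations. Myog is the regulator itself, and Mylpf and Chrna1 hold the E-box CAGCTG. Ttn holds a MEF2 consensus and an E-box other than CAGCTG, and Klhl41 holds a MEF2 consensus and CAGCTG. They are printed 5′ to 3′ on the gene's strand, with matches to the E-box CANNTG and to the MEF2 consensus in capitals. Every CAGCTG is also a CANNTG. The MEF2 consensus was read as YTAWWWWTAR, with Y for C or T, W for A or T and R for A or G. Strings that differ from it by 1 letter were not counted and stay in lower case, such as ctatatttat in the Myog window.
Myog (chr1:134289754-134290003, + strand): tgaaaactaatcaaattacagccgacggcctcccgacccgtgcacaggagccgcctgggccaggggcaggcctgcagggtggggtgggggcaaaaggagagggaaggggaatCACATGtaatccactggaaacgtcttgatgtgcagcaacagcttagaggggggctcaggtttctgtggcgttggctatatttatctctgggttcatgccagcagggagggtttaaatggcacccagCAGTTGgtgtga
Mylpf (chr7:127211358-127211607, + strand): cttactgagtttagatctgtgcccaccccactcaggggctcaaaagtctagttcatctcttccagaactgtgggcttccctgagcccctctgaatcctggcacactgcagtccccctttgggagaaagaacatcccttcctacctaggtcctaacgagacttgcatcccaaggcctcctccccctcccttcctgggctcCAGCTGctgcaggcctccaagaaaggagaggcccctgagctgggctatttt
Chrna1 (chr2:73580339-73580588, - strand): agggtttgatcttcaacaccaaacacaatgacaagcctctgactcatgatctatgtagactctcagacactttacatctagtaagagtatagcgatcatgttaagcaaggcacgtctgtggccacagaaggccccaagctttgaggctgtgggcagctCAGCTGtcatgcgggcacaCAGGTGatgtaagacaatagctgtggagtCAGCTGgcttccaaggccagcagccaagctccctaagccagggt
Klhl41 (chr2:69669870-69670119, + strand): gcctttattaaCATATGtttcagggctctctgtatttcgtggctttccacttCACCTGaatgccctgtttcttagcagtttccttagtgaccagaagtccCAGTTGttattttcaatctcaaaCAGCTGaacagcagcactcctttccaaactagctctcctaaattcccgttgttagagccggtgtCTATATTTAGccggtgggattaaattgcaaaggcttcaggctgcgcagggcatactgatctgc
Ttn (chr2:76982548-76982797, - strand): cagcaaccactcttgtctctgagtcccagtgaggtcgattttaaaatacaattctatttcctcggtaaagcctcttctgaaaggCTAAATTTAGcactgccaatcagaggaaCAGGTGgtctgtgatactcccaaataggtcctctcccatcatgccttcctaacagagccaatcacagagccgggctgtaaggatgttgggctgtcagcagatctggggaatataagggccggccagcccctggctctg
The E-box CANNTG was in 26 of the 31 windows (83.9%), beside 66.2% of 32851 windows of all genes. Its form CAGCTG was in 13 of 31 (41.9%, beside 13.0% of all windows) and the MEF2 consensus in 4 of 31 (12.9%, beside 2.92%), those of Ttn, Myh8, Klhl41 and Casq2. In 8 windows of macrophage genes called higher, CANNTG was in 7 (87.5%), CAGCTG in 2 (25.0%) and the MEF2 consensus in 0, and so few windows allow no comparison with the muscle genes. A match is a string of letters in these bases and is no record of binding.

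Most counts of Myog, Mylpf, Myh3 and Actn2 in the cells with Mef2c lay in few cells. Cells with counts of at least 4 of 18 skeletal muscle genes were called muscle-marker cells. There were 95 of them among 2033 cells with Mef2c alone (4.67%, 95% exact binomial interval 3.80 to 5.68%) and 31 among the 2033 matched cells (1.52%, 1.04 to 2.16%). Such intervals cover counting error only. Per library the share ran from 0 through 4.10 to 11.1% with Mef2c and from 0 through 1.12 to 6.67% without. It was higher in 26 libraries, lower in 1 and equal in the others (two-sided permutation test over 36 libraries, adjusted p = 4e-05 over 4 cell kinds; the unadjusted p of 2e-05 is the smallest that 100000 resamples can give). With 1821 pairs thinned to 5000 counts per cell the numbers were 39 and 6 cells (adjusted p = 0.0002 in the same test). Of the 17 tested genes that define muscle-marker cells, 13 were called higher in these same cells. The tests of shares thus use the same counts as the gene results, were chosen after values were seen, and add no independent support.

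Those 95 cells held 447 of the 522 Myog counts of all cells with Mef2c alone (85.6%), and 95.2% of the Myh3, 87.4% of the Mylpf and 90.3% of the Actn2 counts. Actn2 is not among the 18 genes that define them. The shares were smaller for other muscle genes, at 65.5% for Chrna1 and 48.3% for the calcium store protein Casq2, and the 95 cells held 2690 of the 10591 Des counts. The 31 muscle-marker cells without either factor held 27.7% of that group's Myog counts and 14.2% of its Mylpf counts. The highest Myh3 count in any matched cell was 2, against 145 in a cell with Mef2c.

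In cells with Mef2c alone the number of detected muscle genes reached 15, in matched cells 8. Cells with 9 or more of the 18 genes, a limit set after seeing the distribution, numbered 36 with Mef2c alone and 0 in the matched group (3 of all 6180 cells with neither factor). Close to the limit of 4 there were 124 cells at 3 genes and 31 at 4 with Mef2c, and 73 and 17 in the matched group, so the lower limit cuts through a continuous range. The 36 cells had a median total of 8940 counts. The 59 cells with 4 to 8 genes had a median of 40471, far above the group's own median.

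**Figure D3:**
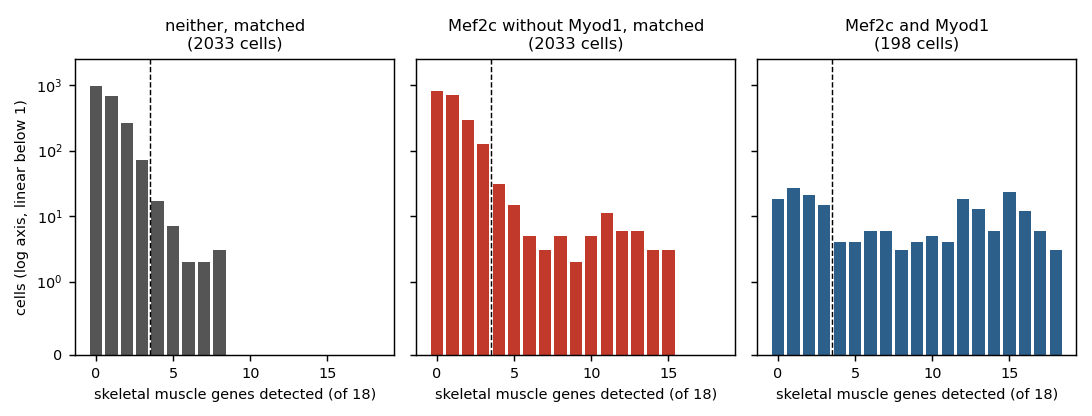
Number of cells (y axis, logarithmic above 1) by the number of 18 skeletal muscle genes detected (x axis) in matched cells with neither factor, cells with Mef2c and no Myod1, and cells with both. The dashed line is the limit of 4 genes, and 36 cells with Mef2c alone lie at 9 or more against 0 matched cells.

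The muscle genes were widely detected in these 36 cells. Mylpf was found in 36 of 36, Tnni1 in 36, Actn2 in 33, Mymk in 34 and Myog in 29. Summed over the 36 cells, Mylpf reached 5244 CPM, beside 7482 CPM in the 94 cells that held Mef2c and Myod1 and as many muscle genes. Myog reached 870 and 1245 CPM, Actn2 700 and 841 CPM, and Ttn 3314 and 2815 CPM. No test was made, since the cells were chosen by these genes or by genes that go with them. Mki67, a gene of dividing cells, held 2 counts in the 36 cells (4.86 CPM), beside 121 CPM in the 59 cells with 4 to 8 muscle genes. Csf1 stood at 58.3 CPM and F3 at 24.3 CPM, each below the 116 and 122 CPM of those 59 cells.

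A cell without a Myod1 count can still carry Myod1. Among 130 cells with Mef2c and 9 or more muscle genes, 94 held Myod1 (72.3%, 95% exact interval 63.8 to 79.8%), with a median of 3 counts where present and exactly 1 count in 19. The 94 had a median total of 13659.5 counts and the 36 without it 8940. Of Mef2c muscle-marker cells with at least 10000 counts, 78 of 133 (58.6%) held Myod1, against 39 of 79 (49.4%) below that depth. How many of the 36 cells carried Myod1 unseen was not tested. When only cells with at least 10000 counts were compared, 4 of the 15 fast and embryonic sarcomere genes passed in place of 9. The median of the list was then 1.07, Myog still passed, and 55 genes in all were higher (0.345%).

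More Mef2c counts went with a larger share of muscle-marker cells. That share was 1.66% (95% exact interval 1.03 to 2.52%) of 1267 cells with 1 Mef2c count and 4.81% (2.92 to 7.41%) of 395 cells with 2. It was 7.41% (4.58 to 11.2%) of 270 cells with 3 to 5 and 34.7% (25.5 to 44.8%) of 101 cells with 6 or more. Depth moved along with the counts, from a median total of 10956 through 15192 and 20719 to 19580, and its part was not tested. No cell with a single Mef2c count had 9 or more muscle genes, while 23 of the 101 cells with 6 or more did. The shares of other kinds moved as well. Macrophage-marker cells made up 0.947%, 0.759%, 4.07% and 4.95% of the cells in these 4 steps, and glia-marker cells 1.82%, 5.06%, 5.56% and 2.97%. Mesothelium-marker cells made up 3.16%, 3.54%, 3.33% and 2.97%. No test of these differences between kinds was made.

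Free RNA in droplets can give counts in cells that do not express a gene. Myog was found in 4.97% of cells with Mef2c alone and 2.61% of matched cells, or 2.75% and 1.04% after thinning. In macrophage-marker cells, which should lack it, 1 of 40 had a Myog count (2.5%, median total 8429.5). Of glia-marker cells 7 of 94 had one (7.45%, median total 7357.5), and of mesothelium-marker cells 15 of 261 (5.75%, median total 10378). Both of these shares lay above the 4.97% of cells with Mef2c alone, so no difference in expression is read from the Myog shares. Mylpf was found in 17.5% and 12.5% of the paired cells, and in 8 of 40 macrophage-marker cells (20.0%, 95% exact interval 9.05 to 35.6%). Neither share of paired cells with a Mylpf count lay above that of the macrophage-marker cells, so no difference in expression is read from these shares. In the cells with Mef2c, 67.5% of the Mylpf counts lay in the 20 highest cells.

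Markers of other cells were higher as well. Of 16 tested macrophage genes 12 were higher in edgeR and 3 passed in DESeq2 (Fcer1g, Laptm5 and Lyz2; 2 had no adjusted p there), with a median of 2.69, and of 11 glial genes 6 were higher, with a median of 1.78. Ctss, a lysosomal protease of macrophages, ran from 0 through 2.15 to 125 CPM with Mef2c alone and from 0 through 0 to 18.8 CPM with neither. It was higher in 22 libraries and lower in 0 (log2 fold change 4.34 ± 0.39, edgeR adjusted p = 2.6e-09). The call of Ctss depended on the tool, since DESeq2 gave 2.65 and an adjusted p of 0.43. Lysozyme, Lyz2, had 2.80 ± 0.38 with 3442 against 353 counts, and the complement genes C1qa and C1qc had 3.57 ± 0.57 and 3.44 ± 0.53 in edgeR, with DESeq2 adjusted p-values of 0.94 and 0.91. The macrophage receptor Adgre1 held 46 counts in 17 cells against 0, and so was tested only through the cells with Mef2c. Of the defining markers none was at 0 in the cells with Mef2c. The summed level of the 16 genes ran from 20.7 through 44.6 to 861 CPM with Mef2c and from 18.2 through 30.6 to 269 CPM without. The groups overlapped, and the highest libraries stood far above the medians. The part of these cells in the muscle result was not tested beyond the comparison without them, given below.

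The macrophage genes Tyrobp, Trem2, Mpeg1, Ms4a7 and Fcgr3 had log2 fold changes from 3.11 to 3.80 and came out among the 12 largest differences by the rule for named genes. Gm49339, a gene model, had 3.63. Gm28653 (3.88) and Art1, an ADP-ribosyltransferase of muscle with 111 against 6 counts, completed that set with Ctss, C1qa, C1qc and Actn2. Of these 12 genes only Actn2 passed in DESeq2 as well (adjusted p = 1.8e-14), while Ngfr, Cdh19, Myog, Mylpf, Myh3, Mymk and Mustn1 passed with both tools. Laptm5 and the lipid receptor Cd36, from the macrophage and adipocyte lists, had 2.79 and 2.81.

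Ngfr, the neurotrophin receptor that marks Schwann cells and their precursors, ran from 0 through 8.65 to 51.9 CPM with Mef2c alone and from 0 through 0.847 to 35.2 CPM with neither. It was higher in 32 libraries and lower in 2 (log2 fold change 2.54 ± 0.30, edgeR adjusted p = 1e-07). Cdh19, a cadherin of the same cells, ran from 0 through 4.77 to 98.5 CPM with Mef2c alone and from 0 through a median of 0 to 5.60 CPM with neither, and was higher in 30 libraries (2.73 ± 0.37). Sox10, the regulator of that lineage, had 2.92 ± 0.42. Summed glial levels ran from 15.6 through 72.0 to 507 CPM and from 10.6 through 39.0 to 117 CPM. The groups overlapped.

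These counts too lay in few cells. Macrophage-marker cells, with at least 3 of 10 genes, numbered 31 with Mef2c alone and 3 in the matched group. They held 98.7% of the Ctss counts and 93.9% of the Lyz2 counts of the cells with Mef2c. Glia-marker cells, with at least 3 of 8 genes, numbered 61 against 4, and held 95.1% of the Sox10 counts and 82.6% of the Ngfr counts. Lyz2 and Sox10 are among the genes that define these cells, which fixes part of their shares, while Ctss and Ngfr are not. The shares of macrophage- and glia-marker cells both differed over libraries (permutation test, adjusted p = 5e-05 and 4e-05). Those after thinning had adjusted p-values of 0.0002 and 8e-05 in the same test. The cells were defined by members of the lists tested above, so these tests use the same counts and add no independent support. Mesothelium-marker cells numbered 66 and 58 and gave no call (adjusted p = 0.4). Looked at the other way, 32 of all 40 macrophage-marker cells (80.0%) and 69 of 94 glia-marker cells (73.4%) held Mef2c, against 1861 of 7905 cells of no marker kind (23.5%). Median totals were 8429.5, 7357.5 and 8438 counts. Only 6 of the 245 cells with Mef2c alone and any marker kind belonged to more than 1 kind.

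The lists that describe the fibroblasts themselves gave no call in edgeR's test as used above or in DESeq2. Of 23 fibroblast genes 0 passed (6 at an unadjusted p under 0.05, median -0.07), of 20 S phase genes 0 (6, median -0.13), of 20 genes of G2 and M phase 0 (1, median -0.07) and of 10 mitochondrial genes 0 (0, median 0.03). The chondrocyte, endothelium, mesothelium and neuron lists also had 0 calls by both tests, with 2, 1, 2 and 0 genes at an unadjusted p under 0.05. Of 12 immediate early genes, 10 MEF2 partners with class II histone deacetylases and 10 inhibitors of myogenesis 0 passed in either, with 3, 1 and 4 at an unadjusted p under 0.05. Of all these lists the bias-adjusted test called 3 genes, each higher: Tcf21 of the fibroblast list (0.69 ± 0.37 in edgeR's test as used above), the collagen Col11a1 of the chondrocyte list (0.18 ± 0.05) and the stress-induced factor Atf3 of the immediate early list (0.56 ± 0.19). Among the inhibitors, Mstn (myostatin) had 1.89 ± 0.60 (edgeR adjusted p = 0.13) and Id3, which blocks the Myod1 family, had 0.12 ± 0.05. Hdac9, a deacetylase that binds MEF2 proteins, had 0.37 ± 0.31. Of 40 other factors of the pool 2 were higher, Mesp1 (0.67 ± 0.19) and Lbh (0.18 ± 0.05), beside 1.28% of all genes tested. The median log2 fold change of the 40 was 0.05, beside 0.01 over all genes. Cells with Mef2c held 0.826 of 9 other factors on average against 0.722 in their partners. Among pairs without any of these 9 factors, 7 of 12 tested fast and embryonic sarcomere genes and 93 genes in all (0.649%) were higher.

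All comparisons were then made again without the marker cells. Without the muscle-marker cells, 0 of 14 fast and embryonic sarcomere genes passed and the list's median fell to 0.17. Of 76 genes of the 7 muscle lists 2 were higher, Myom1 (0.42) and Eya1 (0.50), beside 0.84% of all genes tested there, and 1 was lower, Ncam1 (-0.29), beside 0.461%. The definition of the cells fixes part of this fall. Of the 63 genes that do not define them the same 2 were higher and Ncam1 lower, with a median of 0.08, where 23 of 71 had been higher and 1 lower with all cells. Myog had 0.40 and Actn2 0.30, and neither passed. Leaving out macrophage-, glia- and mesothelium-marker cells instead left 9 of 15 fast and embryonic sarcomere genes higher, beside 0.645% of all genes tested there, with a median of 2.12. In edgeR 0 of 8 macrophage and 0 of 8 glial genes passed there, where 16 and 11 had been tested with all cells. The definition of the removed cells by genes of these 2 lists fixes part of that fall too.

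Without all 4 kinds of marker cell, 1788 pairs remained, and 43 genes (0.272%) were higher and 25 (0.158%) lower. Of the 208 genes higher at first, 152 still had enough counts, 136 kept their sign and 36 passed. Of the 82 lower genes all still had enough counts, 82 kept their sign and 23 passed.

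**Figure D4:**
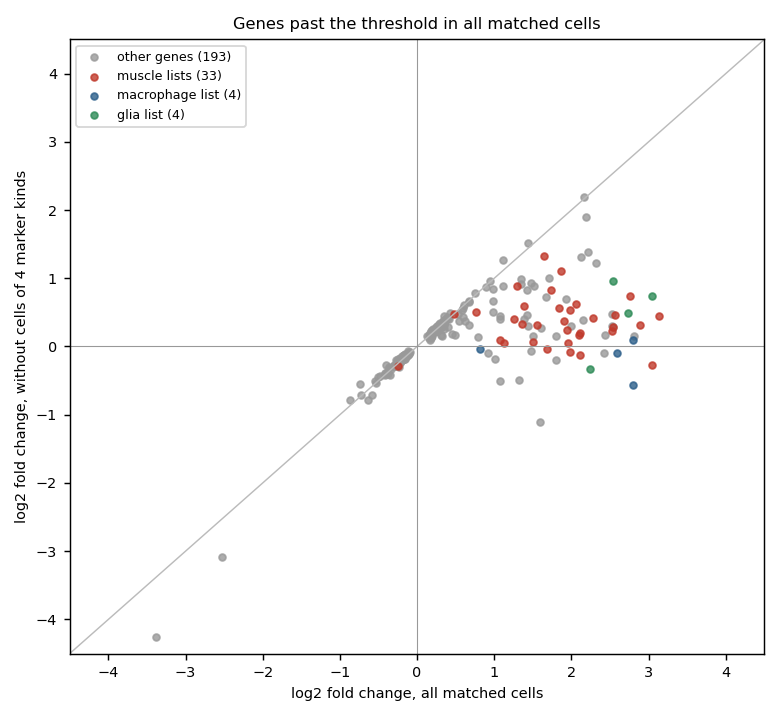
Log2 fold change with all matched cells (x axis) and without the cells of 4 marker kinds (y axis) for 234 genes past the threshold with all cells that still had enough counts. Points of the 33 muscle, 4 macrophage and 4 glia list genes lie nearer to 0 on the y axis than on the x axis, apart from Myom1 (0.48 on both) and Ncam1 (-0.24 and -0.28), and the 82 lower genes stay below 0.

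Among the 36 higher genes that also passed without marker cells, the 9 with the largest log2 fold changes in all matched cells are named here, chosen after their values were seen. Mustn1, a nuclear protein gene of muscle and skeleton, ran from 9.41 through 41.0 to 220 CPM with Mef2c alone and from 0 through 18.9 to 54.1 CPM with neither. It was higher in 26 libraries and lower in 10, by 0.94 ± 0.17 in all matched cells (edgeR adjusted p = 0.00024) and 0.96 without the marker cells (edgeR adjusted p = 0.0036). Sox6, a transcription factor that shapes fibre type, ran from 0 through 9.45 to 25.7 CPM and from 0 through 4.03 to 16.3 CPM. It was higher in 31 libraries, by 0.99 ± 0.18 and by 0.85 without the marker cells. An antisense gene, Sox6os, overlaps it, and strand was not stated. Myom1, which crosslinks myosin in the M-band, had 0.48 ± 0.11 with all cells and 0.48 without the marker cells (edgeR adjusted p = 0.032), the only one of the 25 shared sarcomere genes tested there that passed.

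Susd5 (1.44 and 1.52), the ion pump regulator Fxyd1 (1.12 and 0.89), the ligand Wnt16 (0.67 and 0.66), Map3k7cl (0.61 and 0.61) and Sytl2 (0.59 and 0.56) also kept their call. The same held for Gm26880 (1.12 and 1.26), a gene model that overlaps other models, which was higher in 31 libraries. With cells thinned to 5000 counts Susd5 (0.97), Fxyd1 (0.92), Sox6 (0.86) and Sytl2 (0.46) did not pass, and of the 208 higher genes 128 did. For each of these the ranges over libraries overlapped.

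Apart from Sult1e1, the lower genes named here had differences of under 1 in log2. Csf1, the growth factor of macrophages, ran from 51.9 through 133 to 233 CPM with Mef2c and from 83.6 through 183 to 293 CPM with neither. It was lower in 30 of 36 libraries, at -0.49 ± 0.07 in log2 (edgeR adjusted p = 1.0e-05) and -0.43 without the marker cells (edgeR adjusted p = 0.0065). F3, tissue factor, which starts clotting, ran from 78.7 through 144 to 342 CPM and from 97.1 through 218 to 373 CPM. F3 was lower in 29 libraries, at -0.51 ± 0.10 (edgeR adjusted p = 0.0012) and at -0.44 without the marker cells. Csf1 counts were found in 65.2% of cells with Mef2c and 70.8% of their partners (41.1% and 48.4% after thinning).

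Il1rl1, the receptor of interleukin-33, ran from 3.89 through 17.7 to 155 CPM with Mef2c and from 4.55 through 34.2 to 152 CPM with neither, lower in 29 libraries (-0.86 ± 0.19, edgeR adjusted p = 0.0063). Without the marker cells it had -0.78 and an edgeR adjusted p of 0.056. Ptgs2, the inducible cyclooxygenase, had -0.54 ± 0.12 with all cells and -0.54 without the marker cells, and was lower in 27 libraries. Its sign was not the same in every series, at -0.70 in the JD libraries, -0.65 in PZ47-PZ48 and 0.09 in PZ58. Nup62cl had -0.63 ± 0.12 and -0.79 without the marker cells. Depth changed some of these calls. With cells thinned to 5000 counts Nup62cl had -0.33 (edgeR adjusted p = 0.73) and Ptgs2 -0.34 (edgeR adjusted p = 0.053), and without the 5% deepest cells Nup62cl had -0.42 (edgeR adjusted p = 0.08). Csf1, F3 and Il1rl1 passed under both settings. Of the 82 lower genes 32 passed again after thinning, where 0.699% of all genes were lower. The ranges of all these genes overlapped between groups.

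Hbegf, a ligand of the EGF receptor (-0.42 ± 0.10), the kinase gene Pim1 (-0.41 ± 0.11), the protease inhibitor Tfpi2 (-0.73 ± 0.20), the dehydrogenase Dhrs9 (-0.74 ± 0.21) and Rgcc (-0.58 ± 0.16) were near the threshold. Pim1, Tfpi2 and Rgcc lost their call in 29, 31 and 31 of 36 fits that each left out 1 library, and Hbegf in 6. Dhrs9 lost it without technical replicate 4, 21 or 24. Csf1, F3, Il1rl1, Ptgs2 and Nup62cl lost it in none. These fits took each gene's dispersion, its spread between libraries, from the trend over all genes, unlike the main test. With all libraries that form gave 1.2% of genes higher and 0.505% lower. Whether a call was lost to the missing library or to the changed dispersion was not tested. The largest negative value, Sult1e1 at -3.38 ± 0.77, rested on 255 counts in 4 cells with neither factor against 4 counts in 3 cells with Mef2c, and lost its call in 19 of the 36 fits. In DESeq2 it had -0.36 and an adjusted p of 0.99. It ranged from -4.16 to -1.36 as single libraries were left out.

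**Figure D5:**
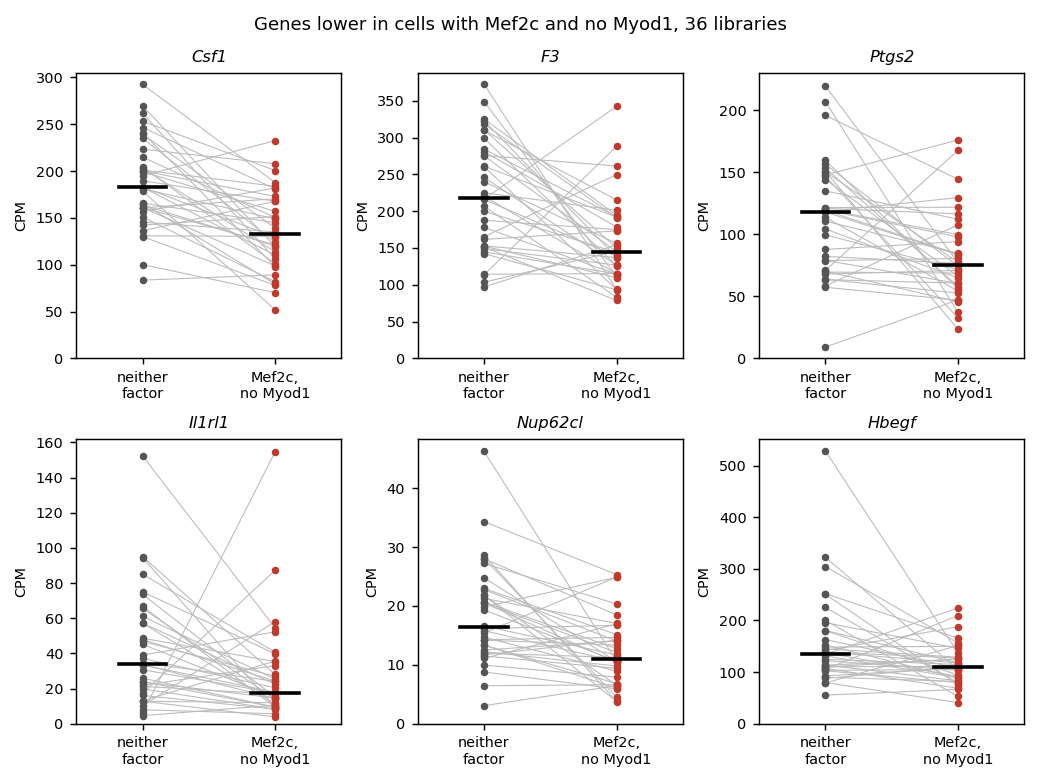
CPM per library (y axis, linear) of Csf1, F3, Ptgs2, Il1rl1, Nup62cl and Hbegf in cells with neither factor (grey) and with Mef2c and no Myod1 (red). Each line joins the groups of 1 of 36 libraries and black bars are medians, which for Csf1 are 183 and 133 CPM.

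By the library names, the libraries came in 3 series, JD (15), PZ47-PZ48 (15) and PZ58 (6). The difference in Myog was 1.99, 2.82 and 2.94 in them, that in Mylpf 1.89, 2.94 and 2.91, and that in Actn2 3.29, 3.33 and 2.69. Of the fast and embryonic sarcomere genes 3 of 12, 8 of 13 and 2 of 12 tested were higher within each series, beside 0.264%, 0.403% and 0.0968% of all genes tested there, with medians of 1.20, 2.12 and 2.30. The test of a varying difference gave 0 of 16237 genes in edgeR, with 660 at an unadjusted p under 0.05, and 2 of the 48 named genes among these, Gm49339 and Mymx. Mymx also lost its call in 20 of the 36 fits without 1 library, made with the trended dispersion, Chrng in 34, Lbh in 26 and Mesp1 in 6. DESeq2 called none of Mymx, Chrng and Mesp1 (adjusted p of 0.50, 0.93 and 0.054). The call of Myog, Mylpf, Myh3, Actn2, Mymk, Ctss, Ngfr or Cdh19 was lost in none of those 36 fits.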

How the data were processed

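Drop-seq was done on mouse embryonic fibroblasts carrying a pool of 48 factors, in 37 technical replicates of 1 biological replicate. The deposited values are counts of molecules per gene and cell, not normalized. The submitters' processing notes name bcl2fastq 2.17.1.14, STAR 2.5.3a, UMI-tools, featureCounts 1.5.3 and mm10. The strand setting and annotation are not given in the sources used here. Symbols matched 27645 of 27999 rows.

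Of 8730 barcodes, 165 were removed as shared between libraries or near another barcode, leaving 8565 cells and 119803382 counts. Technical replicates 4 and 6 were merged. Cells were paired 1 to 1 on total counts within a library and summed per library and group. Genes with at least 20 counts over both groups together were tested by edgeR 4.0.16 (R 4.3.3, TMM scaling, quasi-likelihood, library as a block, Benjamini-Hochberg threshold 0.05). A gene with few counts in 1 group could thus be tested through the other group alone. Such genes enter the list counts and medians. The block comes from the design, since both groups of a pair of sums come from the same library. Mef2c and Myod1 were left out. DESeq2 1.42.0 and other settings were alternatives. No doublet caller was run, and a comparison without the 5% deepest cells was made instead. On simulated counts of 16237 genes, 98 of 100 genes changed 2-fold and 100 of 100 changed 4-fold were found, with 4 false calls. The simulation gave all genes the same dispersion, 0.05, and changed only genes with at least 100 counts. It did not imitate genes whose counts lie in few cells, so it does not give power or false calls for them.

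Members and gene lists were chosen with earlier results of these data known. Genes were named by a rule: among called genes with at least 100 counts and 1 sign in the 3 series, the 12 at the top and the 10 at the bottom by fold change, up to 3 members per list, and Myog, Myf5 and Myf6. Other named genes, the limit of 9 muscle genes and the tests of marker-cell shares were chosen after values were seen.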

Additional observations from a re-analysis of the deposited data

How the results depend on the processing

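The shares of tested genes called higher and lower (1.28% and 0.505%) depended on the cells and on the filter. With DESeq2 0.788% were higher, and of the named genes 28 of 44 higher and 15 of 18 lower passed there (1 of the others had no adjusted p). With no filter beyond 1 count 1.63% were higher and 1.10% lower, and 186 genes in place of 0 varied between series. Against all cells with neither factor, unmatched in depth, the shares were 2.89% and 4.41%. Cells with at least 10000 counts gave 0.345% and 0.138%, with 4 fast and embryonic sarcomere genes in place of 9, and cells without 9 other factors gave 0.649% and 0.286%. The lower share was 0.331% with at least 2 counts of Mef2c and 1.08% without the 5% deepest cells. Without muscle-marker cells 0.840% were higher, without macrophage-, glia- and mesothelium-marker cells 0.645% and 0.282% were higher and lower, and without all 4 kinds 0.272% and 0.158%. Fast and embryonic sarcomere genes numbered 0 without muscle-marker cells and 0 without all 4 kinds. The JD series alone gave 0.264% and 0.0610% (3 sarcomere genes), PZ47-PZ48 0.403% and 0.123%, and PZ58 0.0968% and 0.0149% (2 sarcomere genes). The 10 libraries with Rps27a above 100 CPM gave 0.220% and 0.0780% (3 sarcomere genes) and the other 26 gave 0.767% and 0.319%. Settings with fewer cells or libraries also had fewer counts, and the cause of the other changes was not tested. Without the replicate block, the pairing of sums within a library, 1.40% were higher and 0.216% lower, with 8 sarcomere genes. Leaving out 1 library at a time, with the trended dispersion, was an alternative chosen after seeing the data. With that dispersion all libraries gave 1.2% higher and 0.505% lower genes. The fits without 1 library gave 1.03% (without technical replicate 36) to 1.35% higher and 0.371% (also without 36) to 0.581% lower genes. They had 9 sarcomere genes throughout. Signs turned for Myh3 (-0.43 without muscle-marker cells, -0.27 without all 4 kinds), Tnni1 (-0.12 and -0.087) and Laptm5 (-0.42 without macrophage-, glia- and mesothelium-marker cells, -0.57 without all 4 kinds), none past the threshold there. Of 1011 values under alternatives, 731 kept direction and side of the threshold, 274 kept the direction and lost the call, and 6 turned. They cover the 48 genes named by the rule, while the DESeq2 counts above also take genes named after values were seen. A gene not tested under a setting gave no value there. Without all 4 kinds of marker cell, 5 genes kept their call, 26 lost it and 3 turned.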
